A study of Mus musculus with 8 samples.

Results

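The NRF2 antioxidant response genes are Nfe2l2, which encodes the transcription factor NRF2, and 9 of its best known targets, namely Nqo1, Hmox1, Gclc, Gclm, Txnrd1, Srxn1, Slc7a11, Gsr and Gpx2. They were taken from the deposited count table by gene symbol. All 10 were found among its 32849 gene symbols, and all 10 had enough counts to be among the 14864 genes tested. Frozen esophagus samples from 4 MGL KO and 4 WT mice (labelled MGL WT) were profiled by sequencing of poly(A) RNA to compare the genotypes without any treatment. MGL, encoded by Mgll, is monoacylglycerol lipase, the enzyme that breaks down the endocannabinoid 2-arachidonoylglycerol. The deletion of MGL was global, and the WT mice came from the same in-house breeding as the MGL KO mice. The sources used here give the age and sex of the mice for the study as a whole and not for each library, and they do not say which instrument sequenced which library. Nothing says that 2 libraries came from 1 mouse, but p-values measure only the spread between these libraries.

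NRF2 is held at a low level by KEAP1, an adaptor that brings it to a CUL3 ubiquitin ligase. Oxidants and electrophiles modify KEAP1, so that NRF2 accumulates, pairs with a small MAF protein and binds antioxidant response elements near genes for glutathione synthesis, thioredoxin reduction, quinone reduction and heme breakdown. BACH1 competes for the same elements. In the squamous epithelium of the esophagus, NRF2 is known for its part in keratinization and in the defence against chemical and reflux injury.

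The regions before the start sites of 3 of the genes are shown because they hold a sequence of the kind that NRF2 is known to bind. Each run covers the 250 bases before the canonical GENCODE start in GRCm39, written 5′ to 3′ on the strand of the gene, and capitals mark matches on either strand to the antioxidant response element core TGACNNNGC (Gclm and Txnrd1) or to the NRF2 and small MAF element TGANTCAGC (Srxn1). The windows lie at chr3:122038876-122039125 (forward strand) for Gclm, chr10:82694763-82695012 (forward) for Txnrd1 and chr2:151947194-151947443 (forward) for Srxn1.
Gclm: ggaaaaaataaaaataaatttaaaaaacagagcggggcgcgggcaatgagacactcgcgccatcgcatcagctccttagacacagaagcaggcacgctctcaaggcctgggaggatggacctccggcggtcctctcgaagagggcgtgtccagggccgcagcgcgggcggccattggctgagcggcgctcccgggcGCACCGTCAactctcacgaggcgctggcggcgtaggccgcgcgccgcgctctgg
Txnrd1: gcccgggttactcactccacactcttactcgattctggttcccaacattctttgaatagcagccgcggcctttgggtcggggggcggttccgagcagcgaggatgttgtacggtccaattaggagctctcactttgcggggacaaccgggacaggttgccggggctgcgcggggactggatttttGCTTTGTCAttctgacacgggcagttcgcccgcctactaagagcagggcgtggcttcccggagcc
Srxn1: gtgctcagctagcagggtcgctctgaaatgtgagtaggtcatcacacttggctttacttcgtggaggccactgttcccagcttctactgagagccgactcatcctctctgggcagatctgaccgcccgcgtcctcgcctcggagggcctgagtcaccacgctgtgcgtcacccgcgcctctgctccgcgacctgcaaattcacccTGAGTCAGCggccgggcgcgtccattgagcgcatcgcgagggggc
The TGACNNNGC core was found in 2 of the 10 windows and in 9.66% of the windows of 21729 protein-coding genes, and TGANTCAGC in 1 of the 10 and in 0.93%. A stretch that fits both patterns counts under both. In the 1000 bases before the start, 5 of the 10 genes (Nfe2l2, Gclm, Txnrd1, Slc7a11 and Gsr) held the core, against 28.2% of all these genes. A match is only a stretch of letters, and the absence of a match in Nqo1, Hmox1, Gclc and Gpx2 covers these windows only.

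The deposited counts summed to between 13479069 and 17090152 per library. Mgll checked the labels, with 12.6 to 16.0 normalized CPM (the counts of a gene relative to the TMM-scaled total of its library) in MGL KO and 66.6 to 88.3 in WT libraries. Keratins and muscle genes marked the tissue, with Krt5 between 1257 and 2300 normalized CPM. MGL KO replicate 2 and WT replicate 3 stood apart by low squamous markers (10 differentiated genes summing to 2211 and 3148 normalized CPM, the others 6784 or more) and by the highest sums of 10 skeletal muscle genes (93919 and 80840, the others at most 63297). MGL KO replicate 4 stood apart by airway genes, with 10381 normalized CPM over 8 airway secretory genes against at most 201.5 in the other libraries, where 7 of the 8 were at 0 counts in at least 1 library. Results without 1 or more of these libraries are given for many counts and values, but not for all. In bulk tissue, fewer cells of a type and less RNA per cell cannot be told apart.

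None of the 10 NRF2 response genes differed between MGL KO and WT esophagi at an adjusted p under 0.05, by the quasi-likelihood test of edgeR and Benjamini-Hochberg correction over all 14864 genes tested. That threshold was passed by 0.0471% of all genes tested, 0.0202% with higher and 0.0269% with lower levels in MGL KO. The number among the 10 was also 0 with edgeR's exact test, DESeq2 and limma-voom. An unadjusted p under 0.05 was reached by 1 of the 10, Hmox1, on the lower side, against 8.65% of all genes tested in either direction and 4.29% on the lower side. Without MGL KO replicate 2 it was reached by 2 of the 10, both lower, against 4.00% of all genes tested on that side. Without MGL KO replicate 4, and also without WT replicate 3, it was reached by 1, lower. In 0 of the 10 did every MGL KO library lie on 1 side of every WT library, against 6.02% of all genes tested. Fitted values were higher in MGL KO for 5 genes (Nfe2l2, Srxn1, Slc7a11, Gsr and Gpx2) and lower for 5 (Nqo1, Hmox1, Gclc, Gclm and Txnrd1), against 53% and 47% of all genes tested, with a median log2 fold change of 0.01, while the median over all genes tested was 0.02. With all 8 libraries, these counts stand near the background. Leaving out MGL KO replicate 2 gave 5 higher and 5 lower fitted values, leaving out MGL KO replicate 4 gave 3 and 7, and leaving out WT replicate 3 gave 6 and 4.

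**Figure D1:**
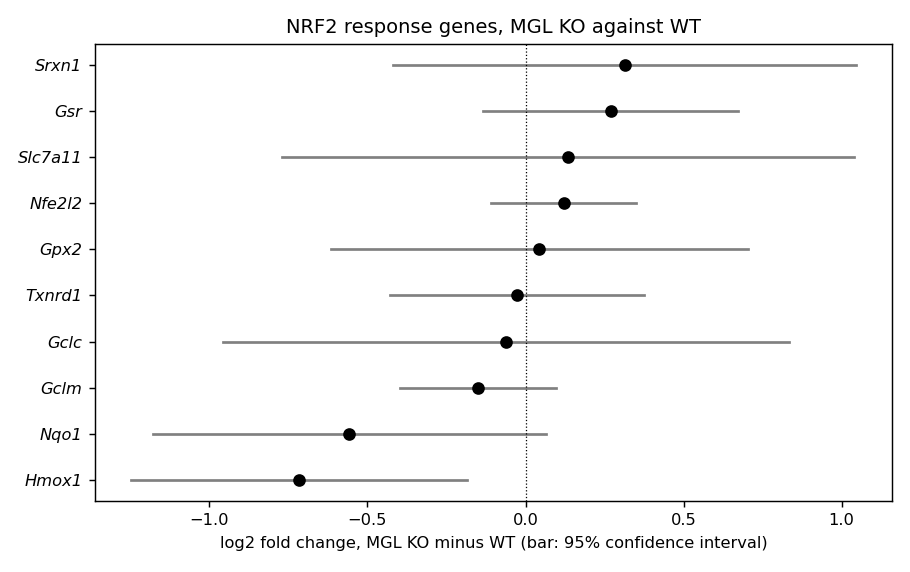
Log2 fold changes of the 10 genes, MGL KO minus WT (points), with 95% confidence intervals (bars) from edgeR's quasi-likelihood fit. The interval of Hmox1, from -1.25 to -0.18, lies below 0, and the other 9 include 0.

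The genes differed in how tightly these data bound a difference. The 95% interval was narrowest for Nfe2l2, from -0.11 to 0.35 on the log2 scale, and for Gclm, from -0.40 to 0.10. It was widest for Slc7a11, from -0.77 to 1.04, and for Gclc, from -0.96 to 0.83. The intervals of 6 genes (Nfe2l2, Gclm, Txnrd1, Gsr, Gpx2 and Gclc) lay between -1 and 1. Those of Nqo1 and Hmox1 reached below -1, and those of Srxn1 and Slc7a11 above 1.

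Nfe2l2 lies on the reverse strand of chromosome 2 (75504739 to 75534985, GRCm39). Its level was 153, 135, 123 and 147 normalized CPM in MGL KO replicates 1 to 4 and 128, 138, 125 and 123 in WT replicates 1 to 4. The highest and the lowest library both belonged to MGL KO, and the groups overlapped. The means were 139 ± 13.4 and 128 ± 6.68 normalized CPM (SD, n = 4), and the log2 fold change was 0.12 (SE, the standard error, 0.10; adjusted p = 0.741, edgeR), and 0.08 without MGL KO replicate 1. Nfe2l2 was the steadiest of the 10 genes: 7.68% of all genes tested had a lower SD between libraries of a group.

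Keap1, the repressor of NRF2, was at 75.3 ± 6.07 normalized CPM (SD, n = 4) in MGL KO and 71.3 ± 7.02 in WT esophagi. Bach1, the competing repressor, was at 43.9 ± 5.34 and 42.6 ± 2.38 (SD, n = 4). Among 13 tested regulators, a list that mixes repressors, partners and relatives of NRF2, 12 had a higher fitted value in MGL KO, against 53% of all genes tested. Their median log2 fold change was 0.12, against 0.02 over all genes tested, and 0 had an adjusted p under 0.05. Without MGL KO replicate 2, 6 of the 13 had a higher fitted value and the median was -0.02, so the one-sided count rests on that library.

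The small MAF genes Maff and Mafk, whose proteins are DNA-binding partners of NRF2, were the regulators whose groups lay apart. Mafk was at 59.0, 60.4, 57.6 and 52.9 normalized CPM in MGL KO and at 43.8, 41.2, 40.6 and 48.8 in WT replicates 1 to 4. Maff was at 17.0, 16.9, 11.3 and 12.4 in MGL KO and at 5.97, 9.08, 8.48 and 8.87 in WT replicates 1 to 4. The groups of both genes were thus fully separated, with higher values in MGL KO, which held for 2.72% of all genes tested. Mafk had a log2 fold change of 0.40 (SE 0.09, adjusted p = 0.359, edgeR) and that of Maff 0.83 (SE 0.20, adjusted p = 0.407). DESeq2 gave an adjusted p of 0.0179 for Mafk (0.0179 to 0.923 over 18 alternatives) and 0.0334 for Maff (0.0334 to 0.923). The third small MAF gene, Mafg, was at 179 ± 16.6 and 177 ± 32.2 normalized CPM (SD, n = 4) in MGL KO and WT.

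Hmox1 encodes heme oxygenase-1, which opens the heme ring and releases iron, carbon monoxide and biliverdin, and it lies on the forward strand of chromosome 8 (75820241 to 75827217, GRCm39). Its level was 8.21, 11.3, 12.5 and 7.76 normalized CPM in MGL KO replicates 1 to 4 and 19.5, 14.95, 11.2 and 19.6 in WT replicates 1 to 4. The 3 highest libraries were WT, and WT replicate 3 lay below 2 of the MGL KO libraries. The means were 9.94 ± 2.32 and 16.3 ± 4.04 normalized CPM (SD, n = 4), so that MGL KO stood at 0.609 times the WT level (log2 fold change -0.72, SE 0.23, unadjusted p = 0.0139, adjusted p = 0.503, edgeR's quasi-likelihood test). By unadjusted p, Hmox1 ranked 401 of the 14864 genes. The log2 fold change stayed between -0.92 and -0.61 over 18 alternatives, of which 0 gave an adjusted p under 0.05.

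Blvrb, which encodes an enzyme that reduces biliverdin, was lower in the same direction. It was at 21.7, 18.4, 20.96 and 20.1 normalized CPM in MGL KO and at 25.4, 23.6, 25.7 and 37.2 in WT replicates 1 to 4. Every MGL KO library lay below every WT library, which held for 3.3% of all genes tested, and the log2 fold change was -0.46 (SE 0.16, adjusted p = 0.507, edgeR). The value was -0.29 without WT replicate 4. Hmox2, the constitutive heme oxygenase, was at 31.8 ± 3.23 normalized CPM in MGL KO and 32.8 ± 1.65 in WT (SD, n = 4).

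Macrophages break down heme from aged red blood cells and are a known site of Hmox1 expression, so their marker genes were set beside it. Of 8 macrophage genes, 7 had lower fitted values in MGL KO, against 47% of all genes tested. An unadjusted p under 0.05 was reached by 6 of the 8, all lower, against 4.29% of all genes tested on that side, and 0 had an adjusted p under 0.05 (edgeR's quasi-likelihood test). Lyz2 was the exception, at 1397 normalized CPM in MGL KO replicate 4 while replicates 1 to 3 of that group had 195 or less. Summed without Lyz2, the 7 genes lay between 168 and 206 normalized CPM in MGL KO and between 179.9 and 531 in WT, where replicates 1 (531) and 4 (344) were highest. The same 2 WT libraries had the highest Hmox1, at nearly equal levels, while MGL KO replicate 4, with the highest Lyz2, had the lowest. Over all 8 libraries, the tested gene with the pattern nearest to Hmox1 was Mrc1, a macrophage mannose receptor gene, with a root mean square difference of 0.14 on the log2 scale after centring each gene. Nxpe4 (0.17), Clec1a (0.19), Dab2 (0.20) and Cybrd1 (0.20) followed. The 4 red blood cell genes tested, Hba-a1, Hba-a2, Hbb-bt and Alas2, also had lower fitted values in MGL KO, 3 with an unadjusted p under 0.05 (4.29% of all genes tested on that side) and 0 without WT replicate 3, with sums of 29.6 to 149.6 normalized CPM in MGL KO and 115 to 431 in WT. All 5 fibroblast genes listed also had lower fitted values in MGL KO, 2 with an unadjusted p under 0.05 (again beside 4.29%) and 0 without both MGL KO replicate 2 and WT replicate 3. The part of macrophages, blood or fibroblasts in the Hmox1 values was not tested.

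**Figure D2:**
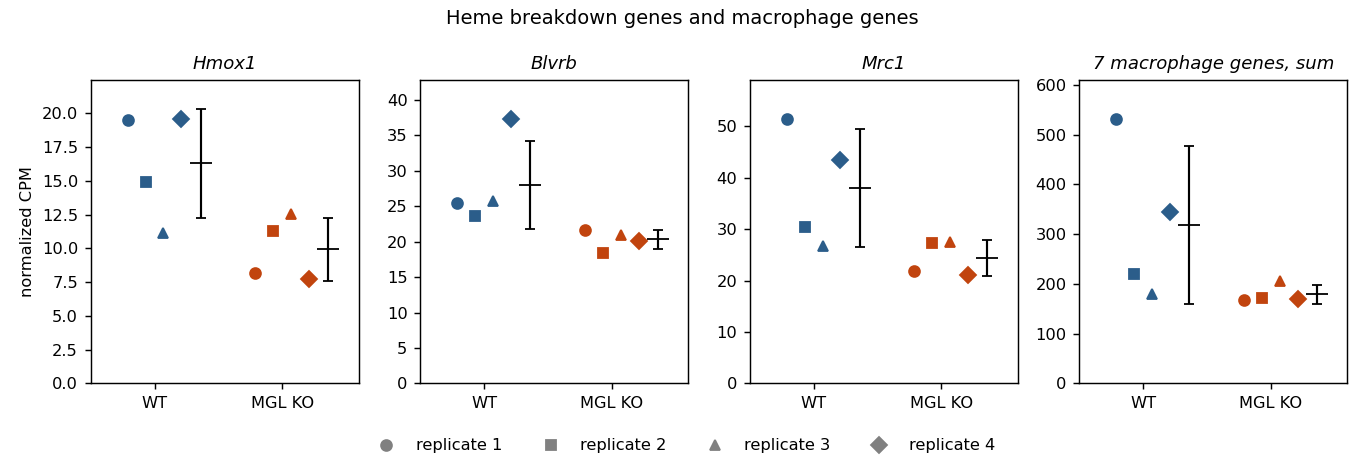
Normalized CPM of Hmox1, Blvrb, Mrc1 and the sum of 7 macrophage genes in each library (symbols mark replicate numbers), with the group mean and SD (bars, n = 4). WT replicates 1 and 4 are the highest for Hmox1, Mrc1 and the macrophage sum.

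The genes for glutathione synthesis start with Slc7a11, the cystine transporter subunit xCT, on chromosome 3 (49846975 to 50398070, reverse strand, GRCm39). It was the lowest of the 10 genes, with 14 to 78 counts per library, and stood at 1.53, 1.26, 2.59 and 4.38 normalized CPM in MGL KO and 2.29, 1.77, 2.17 and 2.74 in WT replicates 1 to 4. The MGL KO libraries spanned the WT range on both sides. The log2 fold change of 0.13 (SE 0.40, adjusted p = 0.929, edgeR) became -0.31 without MGL KO replicate 4. Its partner chain Slc3a2 was at 62.6 ± 4.25 normalized CPM in MGL KO and 57.4 ± 10.1 in WT (SD, n = 4).

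Gclc and Gclm encode the catalytic and the modifier subunit of glutamate-cysteine ligase, the rate-limiting enzyme of glutathione synthesis. Gclc (chromosome 9, 77661797 to 77701770, forward strand, GRCm39) was at 47.8, 39.8, 38.1 and 111 normalized CPM in MGL KO and at 39.5, 43.9, 83.6 and 80.8 in WT replicates 1 to 4. The libraries thus fell around 38 to 48 in 5 cases and at 80.8 or more in MGL KO replicate 4 and WT replicates 3 and 4. Its log2 fold change of -0.06 (SE 0.40, adjusted p = 0.969, edgeR) was -0.56 without MGL KO replicate 4, the library with airway genes, and 0.27 without MGL KO replicate 2 and WT replicate 3. Gclm (chromosome 3, 122039126 to 122065061, forward strand, GRCm39) varied less, with 74.2, 76.8, 63.6 and 72.2 normalized CPM in MGL KO and 67.4, 77.8, 87.1 and 85.9 in WT replicates 1 to 4, and a log2 fold change of -0.15 (SE 0.11, adjusted p = 0.706) that was -0.10 without MGL KO replicate 3 and also without WT replicate 3.

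The subunits did not keep a fixed ratio between libraries. The Gclc to Gclm count ratio was 0.644, 0.518, 0.599 and 1.54 in MGL KO and 0.586, 0.565, 0.959 and 0.941 in WT replicates 1 to 4. The means were 0.826 ± 0.481 and 0.763 ± 0.216 (SD, n = 4), and the log2 ratio differed by 0.01 between the groups (two-sided exact permutation test, p = 0.943, where 0.0286 is the smallest p possible). Without MGL KO replicate 4, the log2 ratio of MGL KO was lower than that of WT by a difference of -0.34 (exact permutation p between 0.343 and 0.914 when 1 library was left out). Gss, which encodes the next enzyme of the path, was at 23.2 ± 2.48 and 22.5 ± 2.45 normalized CPM in MGL KO and WT (SD, n = 4).

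Gsr encodes glutathione reductase, which restores reduced glutathione (chromosome 8, 34142551 to 34188192, forward strand, GRCm39). It was at 39.1, 62.3, 37.9 and 59.7 normalized CPM in MGL KO and at 38.5, 38.1, 44.3 and 44.1 in WT replicates 1 to 4. MGL KO replicates 2 and 4 were the highest and the other MGL KO libraries lay within the WT range or just below it. The log2 fold change was 0.27 (SE 0.18, adjusted p = 0.683, edgeR), 0.15 when MGL KO replicate 2 was left out, 0.17 when replicate 4 was, and 0.039 with limma-voom.

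Gpx2 encodes a glutathione peroxidase of epithelia that uses glutathione to reduce peroxides (chromosome 12, 76839107 to 76842326, reverse strand, GRCm39). Its level was 125, 62.5, 108 and 118 normalized CPM in MGL KO and 94.9, 108, 56.6 and 142 in WT replicates 1 to 4. The lowest library of each group was the one with the lowest squamous markers, MGL KO replicate 2 and WT replicate 3, and the remaining libraries lay at 94.9 or above. The log2 fold change was 0.04 (SE 0.29, adjusted p = 0.969, edgeR) and moved between -0.15 and 0.26 with 1 library left out. The patterns nearest to Gpx2 over 8 libraries were those of Hipk2 (root mean square difference 0.13 on the log2 scale), Gmpr2 (0.15), Usp27x (0.15), Kcnj15 (0.15) and Slc25a48 (0.16). Gpx4, a lipid peroxide reductase, went the other way, with 449 normalized CPM in MGL KO replicate 2 and 300.5 in WT replicate 3 against 195 to 229.7 in the other libraries. Gpx1 had 3 to 22 counts per library and was not tested. It shares exon bases with an antisense gene, and how reads there were counted is not known, so these counts are not read as its level.

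Txnrd1 and Srxn1 belong to the thioredoxin arm. Txnrd1, cytosolic thioredoxin reductase (chromosome 10, 82669785 to 82733546, forward strand, GRCm39), was at 108, 133, 102 and 123 normalized CPM in MGL KO and at 91.1, 100.2, 155 and 129 in WT replicates 1 to 4. The WT libraries enclosed all MGL KO libraries, and the log2 fold change was -0.03 (SE 0.18, adjusted p = 0.968, edgeR). Its substrate gene Txn1 was at 168 ± 13.9 and 158 ± 11.1 normalized CPM in MGL KO and WT (SD, n = 4).

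Srxn1, sulfiredoxin (chromosome 2, 151947436 to 151957687, forward strand, GRCm39), repairs overoxidized peroxiredoxins. It was at 61.4, 108, 45.8 and 51.6 normalized CPM in MGL KO and at 36.7, 39.4, 78.4 and 60.2 in WT replicates 1 to 4. MGL KO replicate 2 and WT replicate 3, the libraries with the highest muscle markers, were the highest of their groups. The log2 fold change was 0.31 (SE 0.32, adjusted p = 0.783, edgeR), -0.02 without MGL KO replicate 2 and 0.56 without WT replicate 3. Prdx1, a peroxiredoxin gene, was at 195 ± 36.04 and 183 ± 13.4 normalized CPM in MGL KO and WT (SD, n = 4).

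Nqo1 encodes a quinone reductase and is widely used as a readout of NRF2 (chromosome 8, 108113835 to 108129934, reverse strand, GRCm39). Its level was 53.2, 70.4, 40.4 and 41.7 normalized CPM in MGL KO and 51.1, 54.5, 107 and 89.8 in WT replicates 1 to 4. WT replicates 3 and 4 were above all other libraries, while WT replicates 1 and 2 lay between the MGL KO libraries. The means were 51.4 ± 13.9 and 75.6 ± 27.3 normalized CPM (SD, n = 4), with a log2 fold change of -0.56 (SE 0.27, adjusted p = 0.620, edgeR). It was -0.33 without WT replicate 3 and -0.74 without MGL KO replicate 2. The nearest patterns over 8 libraries were those of Frzb (root mean square difference 0.14 on the log2 scale), Cdk2ap1 (0.17), Casq2 (0.19), Tuba4a (0.20) and Actc1 (0.21). Casq2 and Actc1 encode muscle proteins. The 10 skeletal muscle genes summed to 93919 normalized CPM in MGL KO replicate 2, 80840 in WT replicate 3 and 63119 in WT replicate 4. Nqo1 was at 70.4, 107 and 89.8 in these libraries. The part of muscle in the Nqo1 values was not tested.

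**Figure D3:**
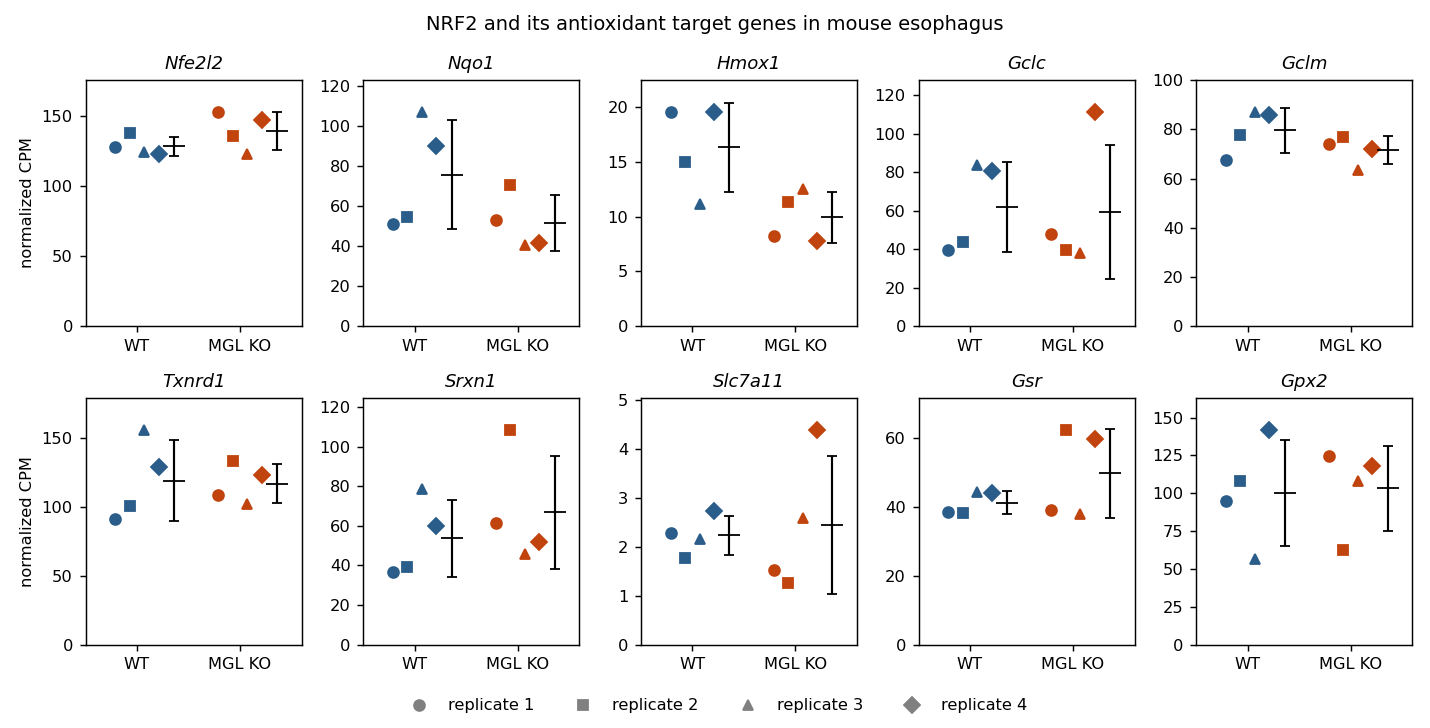
Normalized CPM of the 10 genes in each library, WT in blue and MGL KO in orange (symbols mark replicate numbers), with the group mean and SD (bars, n = 4). The groups overlap in all 10 panels, and Gclc is highest in MGL KO replicate 4 at 111 normalized CPM.

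Per length, the order of the genes in WT esophagi ran from Gpx2 (31.2 ± 10.9 normalized CPM per kb of exon, SD, n = 4) over Nqo1 (27.5 ± 9.94), Nfe2l2 (23.5 ± 1.22), Txnrd1 (16.8 ± 4.11), Gclm (10.001 ± 1.14), Gclc (9.89 ± 3.74), Hmox1 (9.27 ± 2.30), Gsr (5.95 ± 0.49) and Srxn1 (5.72 ± 2.08) to Slc7a11 (0.14 ± 0.03). Neighbours in this order overlapped in their WT ranges, apart from Nfe2l2 and Txnrd1, Txnrd1 and Gclm, and Srxn1 and Slc7a11. The length was the union of all annotated exons of a gene, from 1759 bases for Hmox1 to 15522 for Slc7a11. Which transcripts were present is not known, so the order depends on these lengths. In MGL KO esophagi, Gpx2 (32.1 ± 8.71) was again highest and Slc7a11 (0.16 ± 0.09) lowest, and Nfe2l2 (25.5 ± 2.46) stood above Nqo1 (18.7 ± 5.05).

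The spread between libraries of the same genotype split the genes. Gclc, Slc7a11, Srxn1, Gpx2 and Nqo1 had within-group SDs of 0.65, 0.58, 0.53, 0.51 and 0.46 on the log2 scale, above the median of 0.28 over all genes tested, and 74.2% or more of all genes tested had a lower SD. Hmox1 (0.36) was also above that median. Txnrd1 and Gsr (both 0.28) lay at the median, and Gclm (0.15) and Nfe2l2 (0.11) below it. The comparison was not matched for abundance, and at 14 to 78 counts per library, counting error adds to the SD of Slc7a11.

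Several of the genes were high or low in the same libraries. WT replicates 3 and 4 were each among the 2 highest libraries for 5 of the 10 genes, shared between them for Nqo1 and Gclm. MGL KO replicate 3 was the lowest library for 5 of the 10 (Nfe2l2, Nqo1, Gclc, Gclm and Gsr). For Nfe2l2 it was lowest by little, at 122.6 normalized CPM against 122.9 in WT replicate 4. The same held for Gsr, at 37.9 against 38.1 in WT replicate 2. The share of all genes tested with such ranks was not computed, so these counts are not read as a trait of the 10 genes. By root mean square difference on the log2 scale over 8 libraries, the tested genes nearest to Gclc were Rnf165 (0.24), Prr29 (0.25), Astn2 (0.25), Gm3636 (0.28) and Ccdc24 (0.28). Those nearest to Srxn1 were Fastkd5 (0.14), 1810058I24Rik (0.15), Cops9 (0.17), Camp (0.17) and Rsph3b (0.17). Those nearest to Slc7a11 included Nrg4 (0.13), Gsap (0.16), Scrn1 (0.16) and Lnx1 (0.17).

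**Figure D4:**
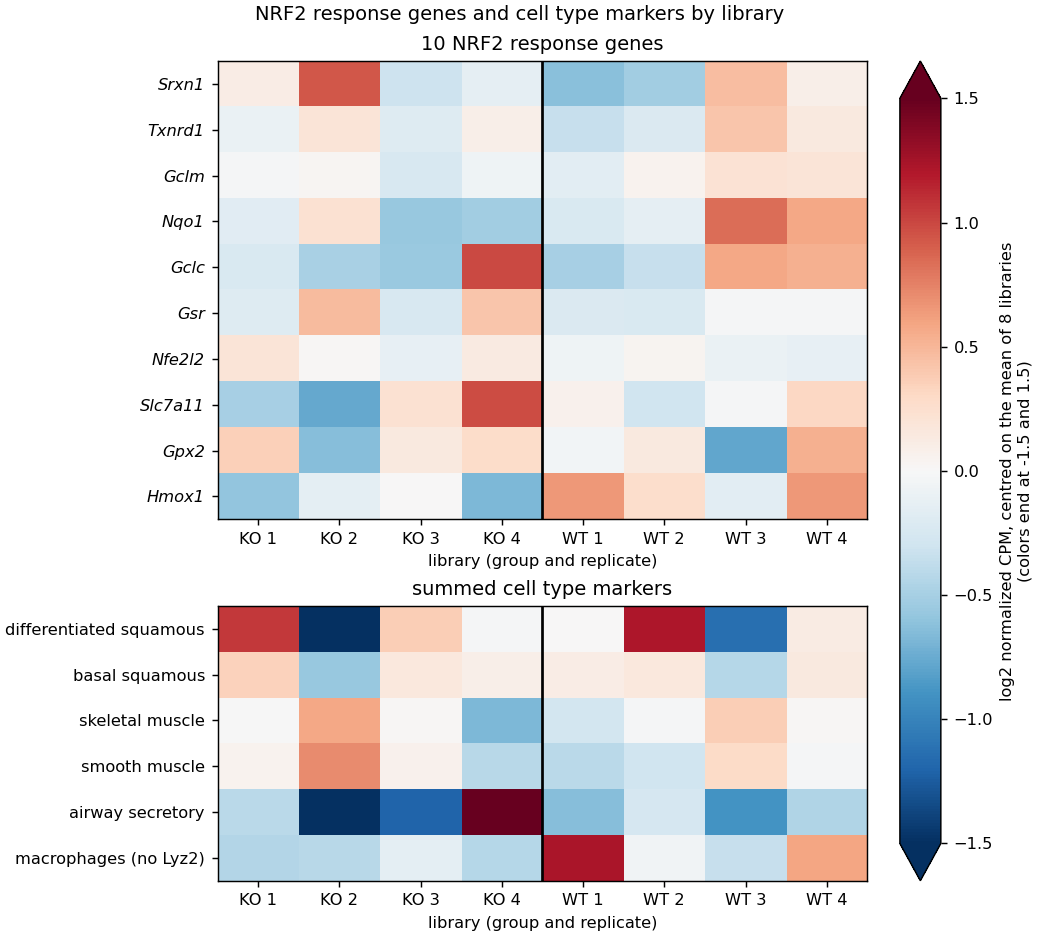
Log2 normalized CPM of the 10 genes (top) and log2 of the summed normalized CPM of cell type markers (bottom), each centred on its mean over the 8 libraries (red above, blue below). KO 2 and WT 3 share low squamous and high muscle markers, high Srxn1 and low Gpx2, and KO 4 combines high airway secretory markers with high Gclc and Slc7a11.

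Beyond the 10 genes, 109 further genes of the pathway were listed by role and 106 were tested. The quasi-likelihood test and limma-voom gave 0 of them an adjusted p under 0.05, which was reached by 1 in the exact test on the same genes (Cbs) and by 3 in DESeq2 (Maff, Mafk and Cbs). An unadjusted p under 0.05 was reached by 12 of the 106, against 8.65% of all genes tested. Of these 12, 5 came from the list of 9 genes of ATF4, the transcription factor of the integrated stress response (below). In 10 of the 106 the groups lay apart, 6 with higher and 4 with lower levels in MGL KO, against 6.02% of all genes tested (2.72% higher and 3.3% lower). The ATF4 list held 2 of these 10 (Asns and Cbs). The 106 genes had a median log2 fold change of 0.01.

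The list of 31 phase 2 and drug metabolism targets held 12 genes with higher and 19 with lower fitted values in MGL KO (median log2 fold change -0.07). Without WT replicate 3, 14 were higher and 17 lower (median -0.006). Without MGL KO replicate 2 the numbers were 11 and 20 (median -0.11), and without MGL KO replicate 4 they were 9 and 22 (median -0.07). Mgst2, a microsomal glutathione transferase gene, was at 60.4, 33.5, 61.7 and 57.0 normalized CPM in MGL KO and at 66.1, 91.3, 90.1 and 82.9 in WT replicates 1 to 4, with a log2 fold change of -0.63 (SE 0.20, adjusted p = 0.492, edgeR) that was -0.46 without MGL KO replicate 2. The groups of Mgst2 did not overlap. Aldh1a1, a retinaldehyde dehydrogenase gene, was at 268, 297, 244 and 797 normalized CPM in MGL KO and at 186, 197, 221 and 218 in WT replicates 1 to 4. All MGL KO libraries were above WT, and the log2 fold change of 0.97 (SE 0.36, adjusted p = 0.531) was 0.39 without MGL KO replicate 4.

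In the list of glutathione synthesis, use and export, 8 of 17 tested genes had higher and 9 lower fitted values (median log2 fold change 0.00), and Abcc3, an exporter of conjugates, was the gene whose groups lay apart, at 20.1 ± 4.35 normalized CPM in MGL KO and 31.0 ± 4.49 in WT (SD, n = 4; log2 fold change -0.62, adjusted p = 0.478, edgeR's quasi-likelihood test). Without MGL KO replicate 2, where Abcc3 was lowest at 13.6, the log2 fold change was -0.48. Of 15 thioredoxin and peroxiredoxin genes, 9 were higher and 6 lower in the fit (median 0.09), but 5 and 10 without MGL KO replicate 2 (median -0.08), with Sesn2, a stress-inducible sestrin gene, at 9.75 ± 1.03 and 7.15 ± 1.21 normalized CPM (SD, n = 4; adjusted p = 0.550). The 7 genes for NADPH supply, which feeds both reductases, had a median log2 fold change of -0.03, the 10 genes for heme and iron -0.06, and the 4 genes for removal of superoxide and peroxide 0.10. Without WT replicate 3, the NADPH median was -0.14, and the glutathione list had 11 higher and 6 lower fitted values. Without MGL KO replicate 2, the heme and iron median was -0.15 and that of superoxide and peroxide 0.04. Without both of these libraries, the heme and iron median was -0.17.

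Slc7a11 is also a target of ATF4, the transcription factor of the integrated stress response, so 9 ATF4 genes were set beside it. Of these, 5 were higher and 4 lower in the fit (median log2 fold change 0.10), and 5 had an unadjusted p under 0.05, 3 higher (Atf4, Asns and Mthfd2) and 2 lower (Cth and Cbs), against 4.35% and 4.29% of all genes tested. All 3 on the higher side peaked in MGL KO replicate 2. Without it, 2 higher and 2 lower had a p under 0.05, and the log2 fold change went from 0.53 to 0.32 for Atf4 and from 0.85 to 0.49 for Mthfd2. Without both that library and WT replicate 3, 3 of the 9 were higher in the fit, 1 of them under 0.05, and the median was -0.06. Asns, asparagine synthetase, was at 17.2 ± 4.13 normalized CPM in MGL KO and 10.9 ± 2.47 in WT (SD, n = 4; log2 fold change 0.66, SE 0.23, adjusted p = 0.509, edgeR's quasi-likelihood test). Without MGL KO replicate 2 and WT replicate 3, its highest and lowest libraries, the log2 fold change was 0.36. Cbs, which makes cystathionine from homocysteine on the way to cysteine, was at 11.3, 6.05, 13.2 and 11.2 normalized CPM in MGL KO and at 18.4, 23.6, 22.0 and 21.8 in WT replicates 1 to 4. The groups of both genes lay apart, in opposite directions. Cbs had a log2 fold change of -1.03 (SE 0.22, adjusted p = 0.306, edgeR), while its adjusted p was 0.0231 in the exact test and 0.00366 in DESeq2 (0.00366 to 0.875 over 18 alternatives). Without MGL KO replicate 2, where Cbs was lowest, the log2 fold change was -0.84.

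**Figure D5:**
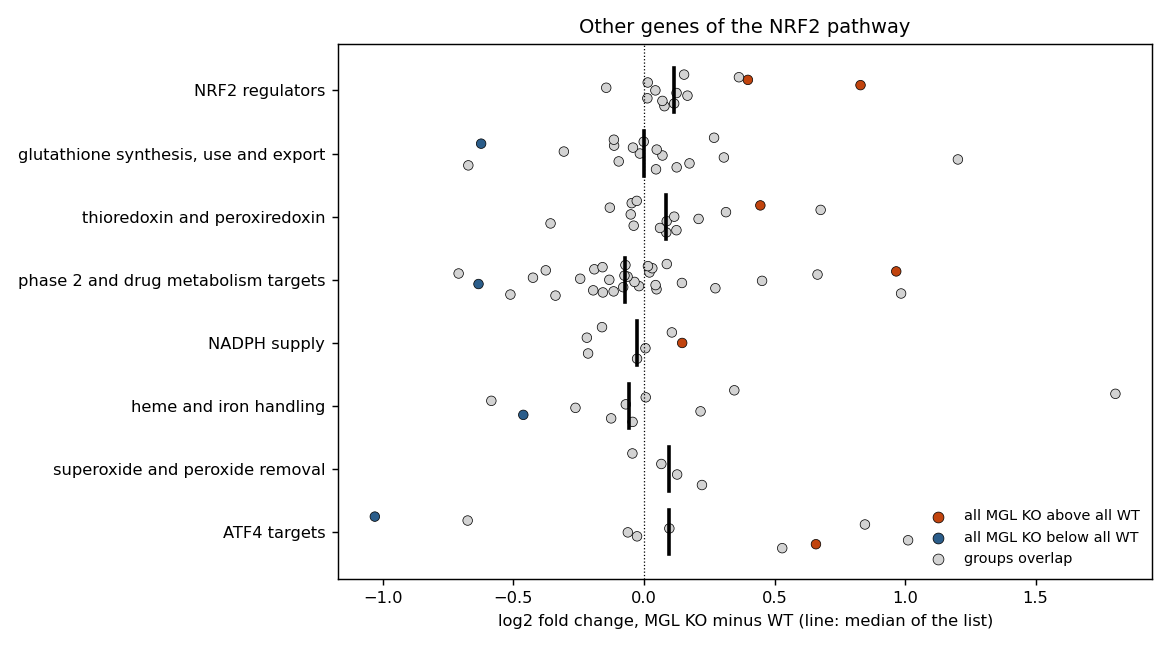
Log2 fold changes of 106 other genes of the pathway, MGL KO minus WT, by list (points, 1 per gene; vertical lines, list medians). Orange points (6 genes) have all MGL KO libraries above all WT libraries and blue points (4 genes) all below. The list of ATF4 targets holds 9 of the 106 genes.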

How the data were processed

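Esophagus tissue of 4 MGL KO and 4 WT mice was profiled by poly(A) RNA sequencing. The authors checked reads with FastQC 0.11.9, trimmed adapters with Cutadapt, aligned them to GRCm39 with STAR 2.7.10b, and deposited raw counts per gene symbol. The annotation, counting tool and strand setting are not given in the sources used here. Nfe2l2, Gclm, Srxn1 and Gpx1 share exon bases with antisense genes, Gclm also with a pseudogene and Gsr with a small nucleolar RNA, and Gpx2 overlaps Fntb on the other strand, so their counts carry that uncertainty.

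Genes were kept by filterByExpr (edgeR 4.0.16, R 4.3.3, minimum count 10), scaled by TMM and compared by the quasi-likelihood test of edgeR (Benjamini-Hochberg correction, threshold 0.05). The exact test, which the study's methods name, DESeq2 1.42.0 and limma 3.58.1 (voom with quality weights), RLE factors, library size alone, other filters, the replicate number as a block and leaving out libraries were alternatives. The SE was derived from the fitted log2 value and its F statistic (their absolute ratio after taking the root of F). The genes kept held between 98.1% and 99.9% of the counts, and 3 counts, the limit a count of 0 allows, equal 0.167 to 0.271 normalized CPM (counting error only). Positions, exon lengths and start sites came from GENCODE vM39. On simulated data drawn for 14864 genes of this comparison, the quasi-likelihood test recovered 48.0% of genes changed by 1 and 84.0% of those changed by 2 on the log2 scale, with 6.38% of calls false. The simulation drew each gene independently and held no shifts in tissue composition between libraries.

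The genes and lists were chosen with earlier results of these data known. Outside the 10 genes, the text names Mgll, partners fixed by role, listed pathway genes whose groups lie apart (up to 5 in each direction), cell type markers, and the 5 nearest patterns of a gene spanning over 1 on the log2 scale. Mafg, Atf4, Mthfd2 and Cth were named after their values were seen, and the counts without libraries that stood apart were added then too. A nearest pattern of Slc7a11 is not reported here.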

Additional observations from a re-analysis of the deposited data

Results flagged for a closer look

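A library stood far from the other 3 of its group by Dixon's test at the 95% level in 14 of 84 groups of 4 values, where chance gives about 1 in 20 for normally spread values. The groups reuse the same 8 libraries and the values were not put on a log scale, so that share is only a rough guide. Of the 10 genes only Gclc was among them, at 111 normalized CPM in MGL KO replicate 4 while its group reached 47.8 otherwise, and with it the Gclc to Gclm ratio, at 1.54 against at most 0.644. In the same library, Aldh1a1 was at 797 normalized CPM (others at most 297), the airway secretory genes summed to 10381 (at most 180.9), the 8 macrophage genes to 1567 (at most 401), of which Lyz2 alone made up 1397 and the other 7 genes 169.7, within the range of 168 to 206 in MGL KO, and the neutrophil genes to 17.7 (at most 4.59).

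MGL KO replicate 2 had the lowest Mgst2 of its group, at 33.5 normalized CPM (others at least 57.0), and the highest Gpx4, at 449 (at most 229.7). WT replicate 3 had the highest Gpx4, at 300.5 normalized CPM (at most 209), the highest Keap1, at 81.7 (at most 69.2), and the lowest sum of basal squamous genes, at 3320 (at least 4819). Blvrb was at 37.2 normalized CPM in WT replicate 4 (at most 25.7), Hmox2 at 30.3 in WT replicate 2 (at least 33.5), and the thyroid genes summed to 4.80 in WT replicate 1 (at most 0.97).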

How the results depend on the processing

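The number of the 10 genes with an adjusted p under 0.05 was 0 under every alternative run. Over all genes tested, 7 passed, against 64 with the exact test on the same genes, 42 with the exact test on every gene counted, 138 with DESeq2, 25 with limma-voom, 2 without a filter, 2 with the replicate number as a block, and 2 to 5 with 1 library left out (2 without MGL KO replicate 3 or 4 or WT replicate 1, 2 or 3). Without both MGL KO replicate 2 and WT replicate 3, an alternative chosen after seeing the data, 2 passed. On simulated data, 15.2% of calls by the exact test and 23.4% by DESeq2 were false, against 6.38% by the quasi-likelihood test. The simulated libraries held no shifts in tissue composition like those seen here, so these rates may not carry over to the real data. Of the other pathway genes, 1 passed with the exact test on the same genes and 3 with DESeq2, and 0 otherwise. Libraries with the same replicate number did not deviate together (correlations from -0.28 to 0.08), so the number was not taken to pair them. Directions that turned all belonged to genes far from the threshold, and the cause was not tested. Without the pair of libraries low in squamous genes, the log2 fold change was 0.27 for Gclc, 0.061 for Txnrd1 and -0.056 for Bach1. That of Slc7a11 was -0.012 with limma-voom and -0.013 with the block, that of Gss -0.011 with limma-voom, and that of Bach1 -0.0015 with limma-voom and -0.016 with library size alone, a scaling that shifted the median gene by -0.04. With 1 library left out, the values ran from -0.56 to 0.12 for Gclc, -0.14 to 0.13 for Txnrd1, -0.31 to 0.35 for Slc7a11, -0.015 to 0.56 for Srxn1, -0.15 to 0.26 for Gpx2, -0.020 to 0.49 for Gpx4, -0.039 to 0.17 for Prdx1, -0.11 to 0.0068 for Hmox2, -0.016 to 0.094 for Bach1, -0.0063 to 0.11 for Gss and -0.34 to 0.19 for the log2 Gclc to Gclm ratio. The median of the 10 genes ran from -0.10 to 0.12. Of the 10 genes, Slc7a11 had the fewest counts, 14 to 78 per library.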
